A study of Elaeis guineensis with 58 samples.

Results

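The comparison covered the 32 oil palms (Elaeis guineensis) supplied by agency L1, of the 58 libraries in the series: 15 palms in the low embryogenesis group and 17 in the zero group. Members were chosen by the agency and group labels. Each palm was an ortet, the tree whose tissue is taken for cloning, and 1 library was made from its spear leaf (frond F0), the youngest, still unopened leaf. Zero palms had given no embryoid lines. Low palms had given 1 to 48 lines with a median of 2 lines, within the 1 to 89 lines that define the group, and 6 of the 15 had given 1 line. Every palm carried the genotype label Dumpy Avros or Dumpy Yangambi Avros. The zero group held 5 Dumpy Avros and 12 Dumpy Yangambi Avros palms, and the low group held 7 and 8. All 32 RNA samples came from a CTAB extraction, and libraries were made with a 3' end kit, in which each transcript gives a read near its 3' end. The groups record a past yield in tissue culture, and the leaf was taken from the intact palm. Age and growing conditions of the palms are not given in the labels.

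Somatic embryogenesis is the formation of embryos from body cells in culture, and in oil palm it is the route to clonal planting material. It passes through callus, and auxin, cytokinin and changes in DNA methylation are known to act in it in plants. Transcription factors such as BABY BOOM promote embryo formation from somatic cells in Arabidopsis and Brassica. Clones of a palm can also flower abnormally, which has kept attention on floral MADS-box genes and on DNA methyltransferases in this crop.

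The libraries held 3943437 to 9685451 counts in genes, with means of 6191034 ± 1591676 (SD, n = 17) in zero palms and 6406861 ± 1316688 (SD, n = 15) in low palms. Between 21034 and 22384 genes had a count in a palm. Plastid transcripts of green tissue were present in every palm, with psbA (photosystem II core protein) at 256 to 11848 CPM (counts scaled to a common library size) and rbcL (large subunit of RuBisCO) at 293 to 6193 CPM. The 10 floral MADS-box genes, markers of inflorescence tissue, summed to 2.08 to 13.9 CPM in low palms and 3.68 to 7.82 CPM in zero palms, and AGL6-1, MADS2 and AGL2-5 had no count in any of the 32 palms. No 2 libraries held identical values.

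No gene of the 18434 tested (0%) was called between the spear leaves of low and zero palms by edgeR's quasi-likelihood test with genotype as a term, at an adjusted p below 0.05. The smallest adjusted p was 0.434. An unadjusted p below 0.05 was found for 1318 genes (7.15% of those tested), of which 881 (4.78%) were at a higher level in low palms and 437 (2.37%) at a lower level. DESeq2, run on the same palms and genes, called 13 genes, 10 higher and 3 lower in low palms. It replaced outlying counts in 43 genes. In limma-voom with quality weights 0 genes were called, with 1619 at an unadjusted p below 0.05. The typical gene had a log2 difference between low and zero palms with a standard error of 0.20. The 95% interval of the difference lay within 2-fold in either direction for 15451 genes (83.8%) and within 1.5-fold for 9395 genes (51.0%). For those genes a larger difference between the group means lies outside the interval. The labels name a separate tree for each library, so the spread is between palms, with 1 leaf each.

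The genes nearest to a difference carry LOC identifiers without a product name, and the 2 of smallest p in each direction are described here. LOC105060599 was at 5.04 to 39.7 CPM with a median of 9.68 in low palms and at 4.52 to 11.7 CPM with a median of 6.04 in zero palms. The groups overlapped, 12 of 15 low palms lay above the zero median, and the 4 highest values were in low palms 15, 6, 14 and 11. Its log2 difference was 1.06 ± 0.22 (SE; 95% interval 0.61 to 1.51), with an unadjusted p of 3.37e-05 and an edgeR adjusted p of 0.434. LOC105050177 was at 61.8 to 244 CPM with a median of 127 in low palms and at 56.5 to 121 CPM with a median of 81.3 in zero palms, a log2 difference of 0.71 ± 0.16 (SE). In the other direction, LOC105056307 was at 0.52 to 4.56 CPM with a median of 1.46 in low palms and at 0.394 to 9.65 CPM with a median of 4.16 in zero palms. Only 1 low palm lay above the zero median, while the lowest value of all was in zero palm 2. Its log2 difference was -1.43 ± 0.34 (SE). LOC105036816 had a median of 8.18 CPM across low palms against 12.5 CPM across zero palms, with a log2 difference of -0.77 ± 0.19 (SE). For these last 3 genes the edgeR adjusted p was also 0.434. All 4 are among the 13 genes called by DESeq2, with adjusted p from 0.0437 to 0.0489.

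The gene that varied most between palms was either nearly silent or well expressed, with nothing between. LOC105053547 lay at or below 2.46 CPM in 16 palms and at or above 30.7 CPM in the other 16. The higher level was found in 12 of 15 low palms and in 4 of 17 zero palms (zero palms 3, 4, 9 and 10). It was found in 6 of 12 Dumpy Avros and 10 of 20 Dumpy Yangambi Avros palms. The highest value, 863 CPM, was in low palm 15, and the group medians were 169 CPM over low palms and 0.83 CPM over zero palms. The log2 difference was 2.62 ± 1.06 (SE), with an unadjusted p of 0.0186 and an edgeR adjusted p of 0.592. That test compares mean levels, and the uneven split of the palms was itself not tested. LOC105049265 showed the same on-or-off form, with the higher level in 10 of 15 low and 13 of 17 zero palms. It lay below 0.5 CPM in 9 palms, 5 low and 4 zero, and between 27.0 and 138 CPM in the other 23. The palms low for it were low palms 5, 7, 8, 9 and 11 and zero palms 6, 9, 13 and 17. Both genes were chosen among those LOC identifiers for the size of their spread over all 32 palms, which did not use the group labels.

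**Figure D1:**
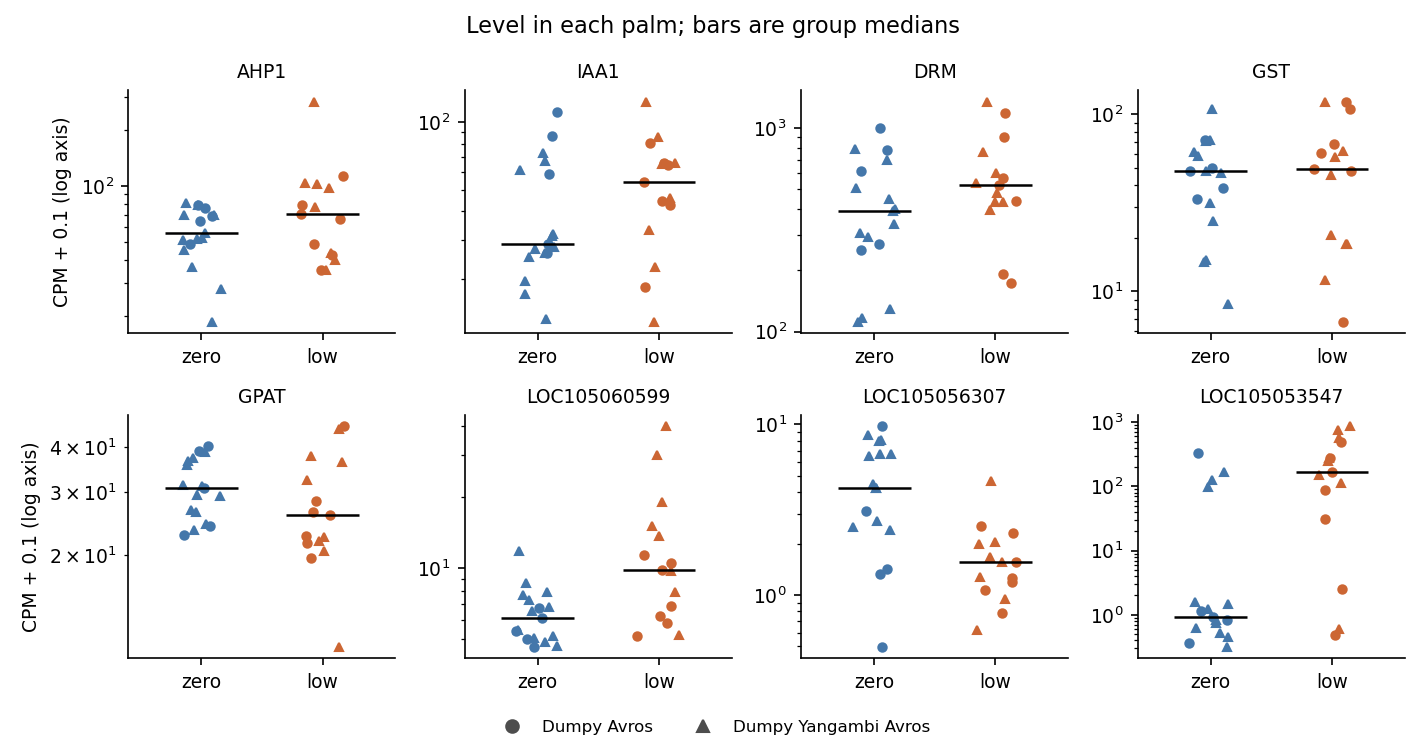
Level of 8 genes in each palm, as CPM plus 0.1 on a log axis, for zero and low palms, with circles for Dumpy Avros, triangles for Dumpy Yangambi Avros and a bar at each group median. LOC105053547 separates into 16 palms at or below 2.46 CPM and 16 at or above 30.7 CPM, and the groups overlap in all 8 genes.

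Genes of hormone response were read first among those with a symbol. AHP1, a phosphotransfer protein that relays the cytokinin signal, was at 35.2 to 285 CPM with a median of 70.9 in low palms and at 18.4 to 80.9 CPM with a median of 55.7 in zero palms. The value of 285 CPM belonged to low palm 6, and the next highest of all palms was 114 CPM in low palm 5. The log2 difference was 0.53 ± 0.25 (SE), with an unadjusted p of 0.0390 and an edgeR adjusted p of 0.683. Without low palm 6 the log2 difference of AHP1 was 0.24, with an unadjusted p of 0.248. With library measures as terms it was 0.15 (unadjusted p = 0.469). IAA1, of the Aux/IAA family of auxin response repressors, had a median of 53.8 CPM over low palms and 28.6 CPM over zero palms, within ranges of 12.8 to 123 and 13.2 to 111 CPM. The ranges nearly coincided, and the log2 difference of IAA1 was 0.34 ± 0.29 (SE; edgeR adjusted p = 0.835), or 0.17 without low palm 11. GSK, a shaggy-like kinase of the family that acts in brassinosteroid signalling, had a log2 difference of 0.27 ± 0.33 (SE), which rested on 216 CPM in low palm 11. Without that palm the log2 difference of GSK was -0.35.

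Genes tied to embryo identity and to DNA methylation were low or level. BBM, the BABY BOOM gene, was too low to be tested, at 0 to 2.92 CPM with a median of 0.55 in low palms and at 0 to 1.71 CPM with a median of 0.33 in zero palms. KNOX1, a homeobox gene of the family that maintains meristems, had counts in zero palm 8 alone, at 0.64 CPM. EgMET1, a maintenance DNA methyltransferase, was at 0.881 to 7.46 CPM in low and 2.1 to 6.37 CPM in zero palms, a log2 difference of 0.02 ± 0.23 (SE). EgDRM1, a de novo DNA methyltransferase, had a median of 13.6 CPM in both groups and a log2 difference of -0.14 ± 0.16 (SE). EgCMT1, a chromomethylase, was too low to be tested, with medians of 0.50 and 0.49 CPM in low and zero palms. Among the floral MADS-box genes GLO2, a B-class gene, was tested, with a median of 3.65 CPM across low palms against 3.71 CPM across zero palms, with a log2 difference of -0.01 ± 0.23 (SE).

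Of the 23 nuclear genes with a symbol 15 were tested and 0 were called; 6 had a higher and 9 a lower fitted level in low palms, with a median log2 difference of -0.01 against 0.03 over all genes tested. TCTP, the translationally controlled tumour protein, had among the narrowest intervals, with a log2 difference of -0.03 ± 0.12 (SE; 95% interval -0.29 to 0.22). The lipid enzymes PTE (a fatty acyl thioesterase) and GPAT (glycerol-3-phosphate acyltransferase) had log2 differences of 0.00 ± 0.15 and -0.15 ± 0.15 (SE). LIP1, a lipase, was the most variable of these, from 0 CPM in low palm 9 to 50.6 CPM in low palm 7, and had a log2 difference of -0.16 ± 0.56 (SE).

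**Figure D2:**
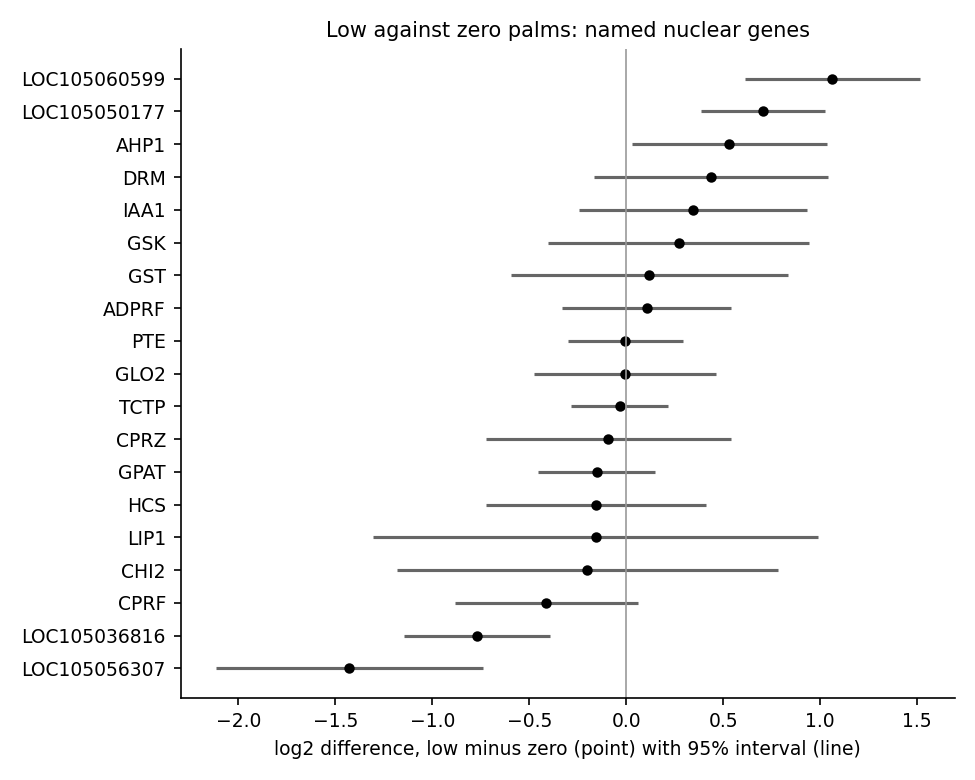
Log2 difference between low and zero palms (point) with its 95% interval (line) for the 15 tested nuclear genes with a symbol and the 4 LOC identifiers of smallest p. Among the 15 genes with a symbol the interval of AHP1 alone excludes 0, and no gene was called after adjustment.

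A further 32 LOC identifiers have a gene name in the reference table, and 27 of these were tested with 0 called. Their median log2 difference was 0.10, against 0.03 over all genes tested. An unadjusted p below 0.05 with a higher level in low palms was found for 4 of the 27, where the share over all genes was 4.78%, and with a lower level for 0, where it was 2.37%. PEX13, a peroxisome import protein, had a median of 452 CPM across low palms against 379 CPM across zero palms, with a log2 difference of 0.39 ± 0.13 (SE; edgeR adjusted p = 0.554). The gene listed as sbp1 had a log2 difference of 0.40 ± 0.14 (SE), and 14 of 15 low palms lay above its zero median of 175 CPM. The others were TPX at 0.36 ± 0.17 and EMZ08 at 0.98 ± 0.42 (log2 difference ± SE). Without low palm 15 the log2 difference of EMZ08 was 0.55. With library size, plastid share and multi-mapped share as terms, the log2 differences were 0.40 for EMZ08 (p = 0.308, unadjusted, edgeR) and 0.23 for PEX13 (p = 0.0489). MnSOD, the mitochondrial superoxide dismutase, had the lowest value of the list and a median of 95.7 CPM across low palms against 162 CPM across zero palms, with a log2 difference of -0.67 ± 0.34 (SE; edgeR adjusted p = 0.695). CAT2, a catalase, stood at 0.20 ± 0.29 on the same scale.

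Of the plastid genes 83 were tested, 29 were under the filter on low counts and 0 were called. Of the 83, 63 had a lower fitted level in low palms, with a median log2 difference of -0.14, against 8118 of all 18434 genes. For photosystem II this was 13 of 15 genes, with a median log2 difference of -0.28, for the plastid ribosomal proteins 13 of 17, and for the NDH complex 5 of 10. These genes lie on 1 plastid genome. The single plastid gene with an unadjusted p below 0.05 was rpl20, a ribosomal protein, at a log2 difference of -0.76 ± 0.36 (SE; edgeR adjusted p = 0.688). Without low palm 9 the log2 difference of rpl20 was -1.16 (unadjusted p = 0.00252, edgeR adjusted p = 0.339). Plastid reads made up 10.7% ± 3.51 (SD, n = 15) of gene counts in low palms and 12.1% ± 2.50 (SD, n = 17) in zero palms, with p = 0.206 in a two-sided permutation test. The direction was not shared by the genotypes. In Dumpy Yangambi Avros the plastid share was 9.34% ± 3.82 (SD) in 8 low and 12.6% ± 1.84 (SD) in 12 zero palms, and in Dumpy Avros it was 12.3% ± 2.54 (SD) in 7 low and 10.9% ± 3.63 (SD) in 5 zero palms. The difference between these differences had a permutation p of 0.0377, which was 0.0660 after adjustment over 7 library measures. The lowest plastid shares were 3.87% in low palm 6, 4.84% in zero palm 9 and 4.91% in low palm 15. How well a 3' end kit captures plastid transcripts was not tested.

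**Figure D3:**
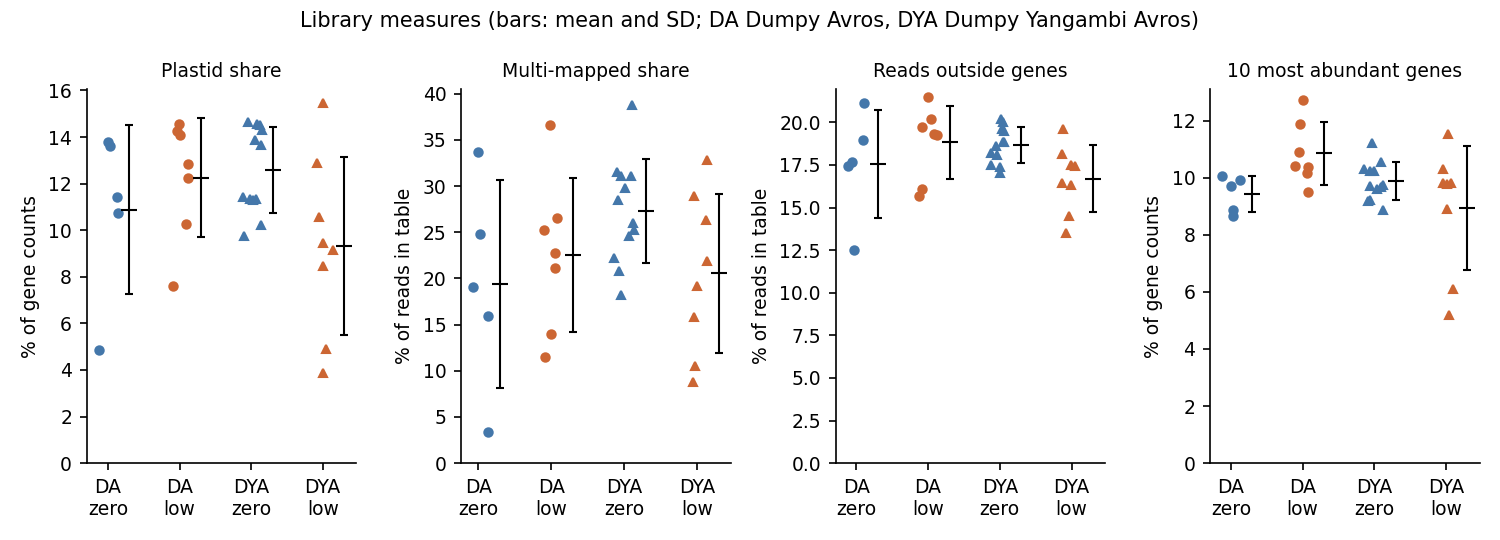
Plastid share, share of multi-mapped reads, share of reads outside genes and share of the 10 most abundant genes in each palm, by genotype label and group, with the mean and SD beside the points. In the plastid panel the low palms average 9.34% in Dumpy Yangambi Avros and 12.3% in Dumpy Avros, below and above the zero palms of the same label.

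No gene of the 18434 tested (0%) had a low minus zero difference that itself differed between the genotype labels in edgeR's interaction test, where 2.79% of genes had an unadjusted p below 0.05 and the smallest adjusted p was 0.627. Within Dumpy Yangambi Avros alone, 1715 of 18578 genes had an unadjusted p below 0.05 and 0 were called. Within Dumpy Avros alone the numbers were 212 of 18875 and 0. In Dumpy Yangambi Avros LOC105060599 had a log2 difference of 1.38, and in Dumpy Avros it had 0.53. The values were 0.95 and 0.31 for LOC105050177 and -1.04 and -0.32 for LOC105036816, in the same order, while LOC105056307 had -1.60 in Dumpy Yangambi Avros and was not tested in Dumpy Avros. The Dumpy Avros fit rested on 5 zero palms. Library measures also differed between the groups within Dumpy Yangambi Avros before adjustment: the low minus zero difference was -1.97 percentage points for the share of reads outside genes (exact permutation test, p = 0.00779, adjusted p = 0.0545), -3.24 points for the plastid share (p = 0.0192, adjusted p = 0.0673) and -6.77 points for the multi-mapped share (p = 0.0475, adjusted p = 0.111). Their part in the gene differences within this label was not tested. Within Dumpy Avros the share of the 10 most abundant genes was 1.42 points higher in low palms (exact permutation test, p = 0.0278, adjusted p = 0.194). The plastid share there had p = 0.470 by the same test.

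Each label accounted for a small part of the variation between palms. Group accounted for a median of 1.68% of a gene's variance in log2 CPM and genotype for 1.89%. Any such label takes some share by chance, and that share was not estimated. The first principal component (PC1) accounted for a median of 11.0%. Components are built from these same values to take the largest shares, so their shares and those of the labels are not on equal terms. The first 5 components held 21.5%, 17.4%, 9.34%, 7.58% and 6.72% of the variance, with jackknife standard errors of 2.39, 3.03, 2.32, 1.91 and 1.81 percentage points. The palm most alike in expression was of the same group for 16 of 32 palms and of the same genotype for 23 of 32, in a set of 12 Dumpy Avros and 20 Dumpy Yangambi Avros palms. Pairs of palms correlated across genes at a median r of 0.862, with 0.879 between zero palms, 0.850 between low palms and 0.862 between a zero and a low palm.

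**Figure D4:**
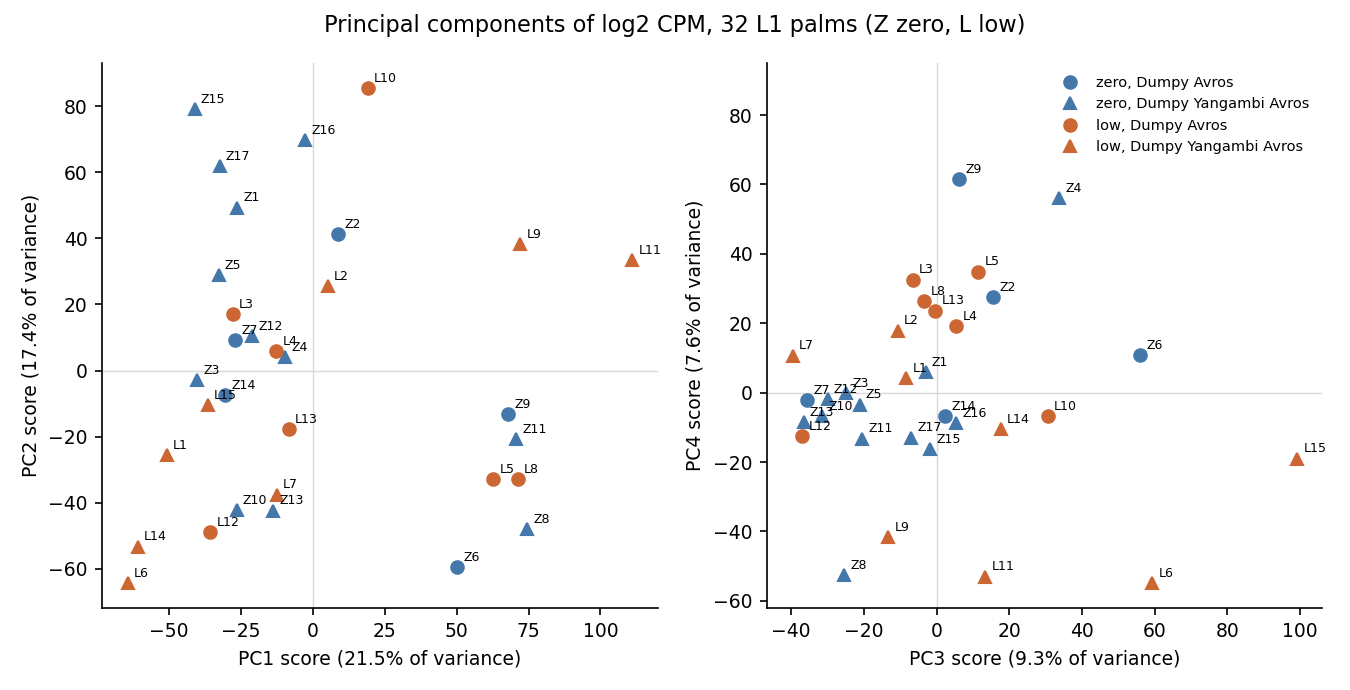
Scores of the 32 palms on PC1 and PC2 (left) and on PC3 and PC4 (right), with colour for the group and shape for the genotype label. On PC1, 8 palms (4 low and 4 zero) lie above a gap from 19.1 to 50.1, and low palm 15 stands alone at 99.2 on PC3.

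PC1 set 8 palms apart from the other 24. The gap between them, from a score of 19.1 (low palm 10) to 50.1 (zero palm 6), was 17.7% of the whole range. Counting only gaps with at least 6 palms on each side, the widest on PC2 to PC5 was at most 6.0% of the range. Single palms or small sets stood off by wider gaps, of 20.8% on PC1 (low palm 11), 28.7% on PC3 (low palm 15) and 30.5% on PC5 (low palms 2 and 11). The 8 were low palms 5, 8, 9 and 11 and zero palms 6, 8, 9 and 11, thus 4 of each group and 4 of each genotype label. Mean PC1 scores were 2.13 ± 54.2 (SD, n = 15) in low and -1.88 ± 41.0 (SD, n = 17) in zero palms, a difference of 0.09 SD (permutation test, p = 0.814, adjusted p = 0.904). Low palm 11 had the highest score, 111, with the lowest TMM scaling factor (0.716) and the fewest genes detected (21034).

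An absolute correlation of at least 0.7 with the PC1 score was found for 1635 genes (8.87%), and it was used here to choose genes to describe. Since the scores are made from these genes, the values below illustrate the axis and test nothing. LOC105038141 was at 431 to 1445 CPM in the 8 palms and at 28.5 to 442 CPM in the other 24, with low palm 10 the only one of the 24 inside the range of the 8. LOC105044840 was at 80.0 to 242 CPM in the 8 and at 5.06 to 80.0 CPM in the 24. In the opposite direction LOC105059786 was at 2.50 to 10.3 CPM in the 8 and at 14.6 to 62.7 CPM in the 24, and LOC105038450 at 21.3 to 39.6 and 40.3 to 152 CPM. RPL21, a protein of the large ribosomal subunit, was at 127.9 to 227 CPM in the 8 palms and at 244 to 589 CPM in the 24, without overlap. RPL27, another such protein, correlated with PC1 less closely than RPL21 and fell short of 0.7. Of the 27 tested LOC identifiers with a gene name, 3 reached an absolute correlation of 0.7 with PC1. These were RPL21 (r = -0.85), CaRP2B (r = -0.80) and FB1 (r = 0.73).

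PC2 ran evenly, from -64.3 in low palm 6 to 85.6 in low palm 10, and an absolute correlation of at least 0.7 with it was found for 888 genes (4.82%). Of the genes with a symbol these included AHP1 (r = -0.82), DRM (r = -0.76) and GST, a glutathione S-transferase (r = -0.78), each over 32 palms and as a description. GST was at 6.59 CPM in low palm 10 and 8.43 CPM in zero palm 15, the palms with the highest PC2 scores, and at 118 CPM in low palm 1. DRM was lowest in zero palms 17, 15 and 16, at 111, 116 and 130 CPM, and reached 1350 CPM in low palm 1. AHP1 was lowest in zero palms 15 and 16 and highest in low palm 6, at the other end of the axis. LOC105060334 followed PC2 most closely (r = 0.91), from 80.7 CPM in zero palm 8 to 1319 CPM in low palm 10, and LOC105054863 opposed it (r = -0.90), from 78.1 CPM in low palm 8 to 2.52 CPM in low palm 10. The median correlation of the plastid genes with PC2 was 0.28. Mean PC2 scores were -7.86 ± 41.4 (SD, n = 15) in low and 6.93 ± 42.9 (SD, n = 17) in zero palms (permutation test, p = 0.325, adjusted p = 0.650).

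**Figure D5:**
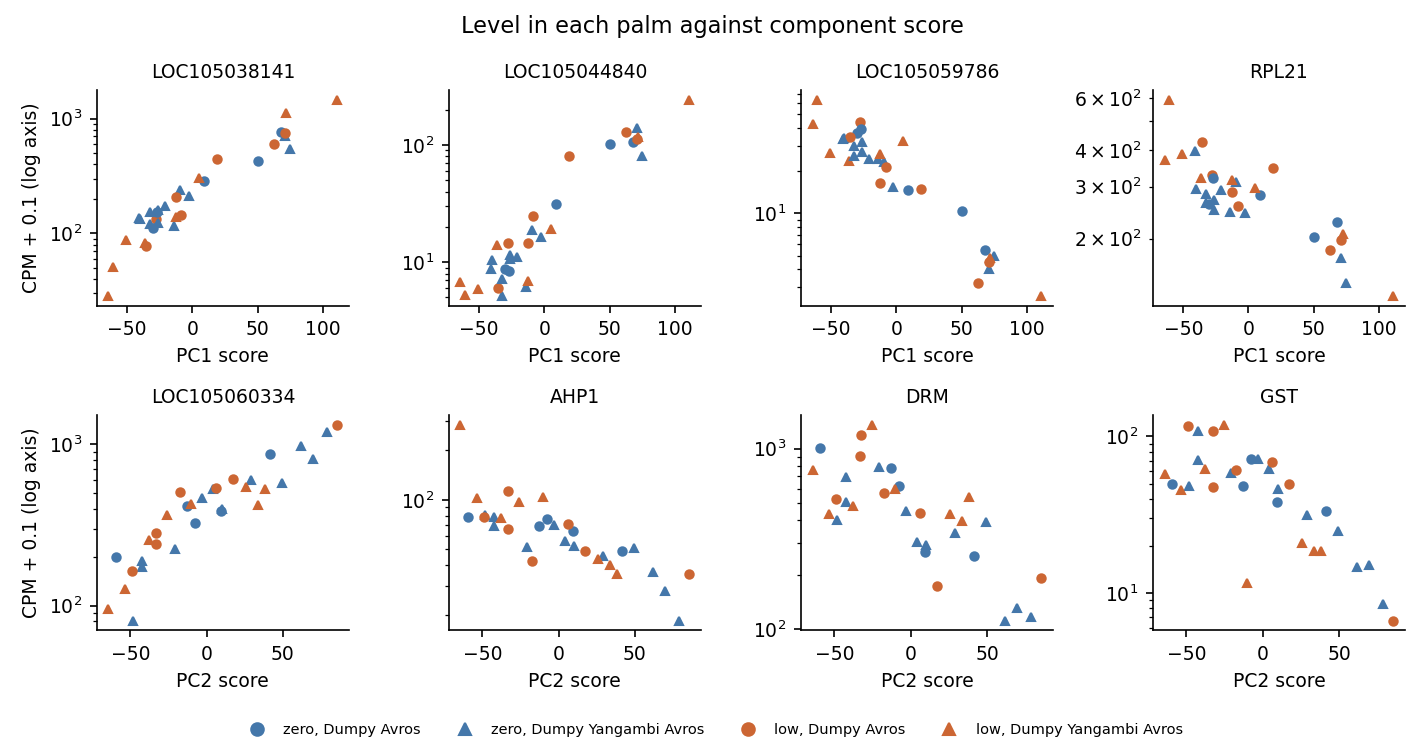
Level of 8 genes in each palm, as CPM plus 0.1 on a log axis, against the palm's score on PC1 (upper row) or PC2 (lower row), with colour for the group and shape for the genotype label. RPL21 lies at 127.9 to 227 CPM in the 8 palms with high PC1 scores and at 244 to 589 CPM in the other 24.

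PC3 was dominated by low palm 15, at 99.2, ahead of low palm 6 at 59.4 and zero palm 6 at 56.0. Mean PC3 scores were 7.87 ± 35.2 (SD, n = 15) in low and -6.94 ± 25.6 (SD, n = 17) in zero palms. The difference was 0.48 SD (permutation test, p = 0.183, adjusted p = 0.612). Without low palm 15 the axis correlated at 0.59 with the original scores. An absolute correlation of at least 0.7 was found for 147 genes (0.797%). LOC105053346 was at 664 to 6472 CPM and the gene listed as CHAC1 at 187 to 1372 CPM, both highest in low palm 15. LOC105051250 and LOC105034114 were lowest there, at 1.88 and 0.73 CPM, and reached 78.2 CPM in zero palm 3 and 59.3 CPM in low palm 12. Low palm 15 also had the smallest share of counts in the 10 most abundant genes, 5.18%, where the other palms reached up to 12.7%.

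On PC4 and PC5 no difference between the groups passed the test. On PC4 the Dumpy Avros palms scored 17.4 ± 21.8 (SD, n = 12) and the Dumpy Yangambi Avros palms -10.4 ± 26.2 (SD, n = 20), a difference of 1.00 SD (permutation test, p = 0.00406, adjusted p = 0.0406 over 10 tests). The adjusted p was no longer below 0.05 when any of 20 of the 32 palms was left out, with values from 0.0042 to 0.115 over the 32 repeats. On PC5 low palms scored 8.80 ± 32.9 (SD, n = 15) and zero palms -7.77 ± 15.6 (SD, n = 17), a difference of 0.63 SD (permutation test, p = 0.0719, adjusted p = 0.359), with low palms 11 and 2 highest at 88.4 and 64.6. Within low palms, log2 of the number of lines had Pearson's r of -0.02, 0.35, -0.26, -0.09 and -0.42 and Spearman's rho of -0.01, 0.26, -0.26, -0.13 and -0.26 with PC1 to PC5 (n = 15), and the smallest permutation p of these was 0.117 (adjusted p = 0.507). No relation with the yield of lines was detectable over 15 palms, 6 of which share the value of 1 line.

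Measures of the libraries moved with some axes. Of 42 relations between components and 7 library measures, taken on each side of the gap for PC1, 3 passed by Pearson's r and 1 by Spearman's rho after adjustment. The share of reads overlapping more than 1 gene correlated with PC2 at r = -0.62 (permutation test, p = 0.00013, adjusted p = 0.00546) and rho = -0.59 (p = 0.00057, adjusted p = 0.0239), and at r = -0.52 without the 2 palms farthest from its median. This share was small, with a mean of 0.187% of the reads in a table and a range of 0.138% to 0.268%. It is a summary line apart from the gene counts. With PC3 the same share gave r = 0.56 (adjusted p = 0.0203) and rho = 0.49 (adjusted p = 0.0989), and r = 0.60 without the 2 farthest palms, by the same permutation test. The share of the 10 most abundant genes correlated with PC3 at r = -0.58 (adjusted p = 0.0203) and rho = -0.36 (adjusted p = 0.236), and this rests on 2 palms, since r was -0.11 without them. The plastid share, the share of the 10 most abundant genes and the number of genes detected come from the same counts as the components. Their relations with the axes are therefore descriptions. The part of the library measures in the axes was not tested. Between the groups none of the 7 measures differed at an adjusted p below 0.05, the smallest permutation p being 0.0975 for the number of genes detected (21876 ± 341 in low and 22058 ± 263 in zero palms, SD, n = 15 and 17). The direction of several measures differed between the genotype labels. For the difference between the labels the permutation p was 0.0145 for reads overlapping more than 1 gene, 0.0188 for the 10 most abundant genes and 0.0327 for reads outside genes, with adjusted p of 0.0657, 0.0657 and 0.0660.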

How the data were processed

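Each of the 32 L1 tables deposited by the authors gives unnormalized read counts by gene. The submitters' processing notes list STAR 2.7.2b, HTSeq 0.11.2 and bcl2fastq. Tool settings, the strand setting and the genome build are not given in the sources used here, so overlapping and near-identical genes are uncertain. Of 27986 identifiers 25047 matched the EG11 gene table, used for names only. The 5 summary lines, among them multi-mapped reads (23.3% ± 8.28 of a table, SD, n = 32) and reads outside genes (18.0% ± 2.07), were left out of tests. Genes passing filterByExpr were fitted with edgeR 4.0.16 (R 4.3.3; TMM, robust glmQLFit and glmQLFTest, genotype and group), adjusted by Benjamini-Hochberg over all genes. Components used log2 CPM (prior count 2), centred and unscaled. Permutation tests were two-sided with 100000 resamples. They were enumerated in full (exact) for library measures within a genotype label and for correlations over the palms above the PC1 gap. DESeq2 1.42.0, limma 3.58.1 and sva 3.50.0 served alternatives. The fit was tested on simulated data. Named genes were, in each direction, the 2 LOC identifiers of smallest p (mean log2 CPM of at least 1), the 2 that followed each of 3 components most closely and the 2 of largest SD (at least 3), every gene with a symbol or name, and the 2 plastid genes of largest difference per list. Lists fixed by product name could not be matched. Members and lists were chosen with earlier results of these data known.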

Additional observations from a re-analysis of the deposited data

How the results depend on the processing

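Most alternative fits of low against zero palms gave no call. The exceptions were DESeq2 (13 genes, 4 of them named), no filter on low counts (1 gene, LOC109506786) and the fit without low palm 9 (1 gene, LOC105033895). The other 31 of 32 fits that left out 1 palm gave 0 calls, so the count ranged from 0 to 1, with 1076 to 1705 genes at an unadjusted p below 0.05. DESeq2 replaced outlying counts in 43 genes and left 11 genes without an adjusted p. The 4 LOC identifiers described by the smallest p kept their direction in every fit that gave a value. Differences of other named genes changed sign, on the log2 scale, as follows. In Dumpy Avros palms alone the values were accD 0.090, ADPRF -0.34, AHP1 -0.046, CHAC1 -0.39, CPRZ 0.71, DRM -0.031, EgDRM1 0.032, EgMET1 -0.27, FB1 -0.13, GLO2 0.34, IAA1 -0.22, ndhG 0.17, ndhJ 0.12, petA 0.046, petD 0.42, psaJ 0.27, psbL 0.48 and rbcL 0.45. Those of ndhG, AHP1, ndhJ, CHAC1 and DRM were -0.74, 0.53, -0.50, 0.45 and 0.44 over all palms. In Dumpy Yangambi Avros palms alone they were GST -0.078, HCS 0.13, PTE 0.032 and TCTP 0.012. With library quality measures as terms they were ADPRF -0.020, atpH 0.036, CPRZ 0.046, EgMET1 -0.041, GST -0.088, PTE 0.0089, rbcL 0.17, rpoA 0.078 and rpoC2 0.090. With limma-voom and quality weights they were ADPRF -0.20, CPRZ 0.053, EgDRM1 0.052, EgMET1 -0.29, FB1 -0.088, GSK -0.35, LIP1 0.26 and PTE 0.082. With 2 surrogate variables they were EgMET1 -0.051, GSK -0.30, GST -0.038, PTE 0.015 and TCTP 0.029. Without a genotype term they were EgMET1 -0.0055, GLO2 0.14 and PTE 0.049, with counts thinned to the smallest library EgMET1 -0.011 and GLO2 0.13, and with DESeq2 GLO2 0.0093. The next alternatives were chosen after seeing the data: with PC1 and PC2 as terms the values were CHI2 0.13, CPRZ 0.059, EgMET1 -0.038, FB1 -0.081, GSK -0.094, GST -0.22, PTE 0.0088 and TCTP 0.010, and without low palms 11 and 15 ADPRF -0.085, CPRZ 0.11, EgMET1 -0.039, FB1 -0.10 and GSK -0.28. Leaving out 1 palm at a time, also with signs changing, gave ranges of CPRZ -0.22 to 0.0080, GLO2 -0.12 to 0.079, GSK -0.35 to 0.37, GST -0.12 to 0.23, HCS -0.27 to 0.00049, PTE -0.053 to 0.089, TCTP -0.077 to 0.011, EgMET1 -0.10 to 0.11, FB1 -0.30 to 0.20. Leaving out 1 palm reversed or moved by over 1.5 times the value of 34 of 48 genes followed, among them DRM, at 0.25 without low palm 1, and CHAC1, at 0.24 without low palm 15. The cause of these changes was not tested.

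PC1 held 29.7% of the variance with the 500 most variable genes, 24.8% with a mean of at least 50 counts and 18.6% with genes scaled to unit variance. With the 500 most variable genes 1 component, PC5, differed between the groups, the PC1 difference was -0.082 SD, and the genotype differences on PC3 and PC5 were -0.13 and -0.36 SD. The genotype difference on PC5 was -0.0069 SD without plastid genes and -0.073 SD with thinned counts, and that on PC2 was 0.027 SD with genes scaled to unit variance. Of the genotype tests, 0 passed with genes scaled to unit variance, and 0 to 1 when each palm was left out, an alternative added after seeing the data. Relations with library measures that passed numbered 1 with the 500 most variable genes, 9 with unit variance and 1 when the 2 palms most distant from each measure's median were left out. No paired analysis was possible because each library is a separate palm and the labels pair no low palm with a zero palm. Genes under a few CPM, such as BBM and EgCMT1, are limited by depth. For named synonyms the genes followed through the alternatives were chosen after their values were seen.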
